A study of Homo sapiens with 6 samples.

Results

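The transcripts of CD44, a cell-surface receptor, were examined in HaCaT, a line of human keratinocytes that grows without limit in culture. Any transcript that the files name CD44 was counted, together with assembled transcripts that share a splice junction with one of them. This gave 36 distinct CD44 transcripts over 6 libraries, 29 of them annotated and 7 assembled from the reads. The libraries listed 28, 25 and 25 of them after PSENEN siRNA and 24, 25 and 26 after mismatch siRNA, out of 167955 to 181298 transcripts of all genes in PSENEN siRNA libraries and 185198 to 193153 in mismatch siRNA libraries. CD44 is 1 of 27988 genes named in the files.

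The 3 PSENEN siRNA libraries came from cells given 100 pmol of an siRNA against PSENEN, a subunit of gamma-secretase, with Lipofectamine 2000. The 3 mismatch siRNA libraries came from cells given an siRNA that does not match the target. Both groups were kept in a high-glucose DMEM that held 10% fetal calf serum, and the labels name RNA extraction at 48 h and 72 h without saying which time was sequenced. The labels do not say that the libraries of a group came from separate cultures, so every p-value below measures the spread between these libraries, which may be technical. The silencing acted on whole cultures of 1 cell line, and in bulk RNA fewer cells with a transcript and less RNA per cell cannot be told apart.

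CD44 binds hyaluronan, a sugar polymer of the matrix between cells, and links it through ezrin, radixin and moesin to the actin cytoskeleton. Its RNA begins and ends with constant exons, and a block of variable exons in between is spliced in or out in many combinations; the form without any of them is called standard CD44, and forms with the last of them, v8 to v10, are typical of epithelial cells. Membrane CD44 is cut outside the cell by metalloproteases and then inside the membrane by gamma-secretase, the enzyme that PSENEN belongs to. The exons are named here by their order in the annotated transcript with all of them, ENST00000428726: c1 to c5, then v2 to v10, then c15 to c18.

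The gene lies on the plus strand of human chromosome 11, at 35138870 to 35232402 of GRCh38 (ENSG00000026508), with 39 transcripts in GENCODE 29. The variable block runs from v2 at 35196746 to v10, which ends at 35211449. Each of the 9 variable exons has a length that is a multiple of 3, from 90 bases for v9 to 204 bases for v10, so that adding or skipping one keeps the reading frame. The sequences below, taken from the GENCODE 29 transcripts, show the splices on which the isoforms differ. The first pair shares its acceptor, the start of c15: standard CD44 joins c5 to it, and forms whose variable block ends with v10 join v10 to it. Entries that join v9 or v3 to c15 were also listed. The third is the splice of c5 to v3. Exon c5 ends at 35190065, v3 starts at 35198121 and c15 starts at 35214852. Small letters are the upstream exon and capitals the downstream exon.

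c5 to c15: gaatccctgctaccaGAGACCAAGACACAT
v10 to c15: atcgttccttatcagGAGACCAAGACACAT
c5 to v3: gaatccctgctaccaGTACGTCTTCAAATA

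Exons v8, v9 and v10 follow, because they were covered in every library and had the highest mean levels of the variable exons in both groups. Their first and last 15 bases, which meet the neighbouring exons, are in capitals. They lie at chr11:35208105-35208206, chr11:35209965-35210054 and chr11:35211246-35211449 (GRCh38, plus strand).

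v8: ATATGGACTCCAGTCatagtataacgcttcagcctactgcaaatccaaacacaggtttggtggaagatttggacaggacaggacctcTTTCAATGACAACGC
v9: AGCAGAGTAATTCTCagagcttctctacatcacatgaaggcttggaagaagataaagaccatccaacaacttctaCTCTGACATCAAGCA
v10: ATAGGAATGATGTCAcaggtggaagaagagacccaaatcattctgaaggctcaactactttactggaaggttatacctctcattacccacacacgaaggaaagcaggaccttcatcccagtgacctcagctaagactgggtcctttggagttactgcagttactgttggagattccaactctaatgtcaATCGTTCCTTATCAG

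Libraries held 11.9, 11.3 and 9.16 gigabases of assembled coverage after PSENEN siRNA and 15.6, 13.7 and 11.5 gigabases after mismatch siRNA; read counts were not used here. The targeted gene had 1.75, 2.08 and 1.496 TPM (a level corrected for transcript length and library depth) in PSENEN siRNA libraries, against 6.58, 12.6 and 7.47 TPM in mismatch siRNA libraries. The groups did not overlap, and 20.0% of the PSENEN level was left (log2 difference -1.79, SE 0.25, limma adjusted p = 0.0455). Of 16177 genes tested, 85 were called at an adjusted p under 0.05, 27 higher and 58 lower, and the call of PSENEN was lost with any 1 library left out (limma adjusted p 0.0862 to 0.152). It was also lost under 6 other settings (limma adjusted p 0.0504 to 0.220), while its difference stayed below 0 under all 16. All 10 keratinocyte markers were listed, with summed levels of 3490 to 4179 TPM in PSENEN siRNA libraries and 5147 to 8607 TPM in mismatch siRNA libraries. Markers of fibroblasts summed to 0.550 to 2.33 TPM after PSENEN siRNA and 1.99 to 2.69 TPM after mismatch siRNA, melanocyte and endothelial markers reached at most 1.09 TPM in any library, and leukocyte markers reached at most 1.67 TPM. COL1A2, PDGFRA, LUM, MLANA, TYR, DCT, PECAM1, PTPRC, CD3E and LYZ, which mark those other cell types, were not listed. The part that depth and the keratinocyte markers play in the CD44 values was not tested.

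CD44 was an abundant transcript in every library, and its total did not differ between the groups beyond their spread. Summed over its transcripts, CD44 had 267, 475 and 322 TPM in PSENEN siRNA libraries, against 413, 375 and 211 TPM in mismatch siRNA libraries. The groups overlapped throughout: the highest value was in PSENEN siRNA library 2 and the lowest in mismatch siRNA library 3. The means were 355 ± 108 TPM after PSENEN siRNA and 333 ± 108 TPM after mismatch siRNA (SD, n = 3 each), which placed CD44 at rank 197 of 27988 genes. The log2 difference was 0.11 with an SE of 0.31 and a limma adjusted p of 0.907, and 0.525% of all genes tested were called in this comparison. Its 95% interval ran from a fold of 0.644 to a fold of 1.80, so a change inside that range could not be told from none with these libraries. The sign turned to -0.12 without PSENEN siRNA library 2 and to -0.19 without mismatch siRNA library 3.

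**Figure D1:**
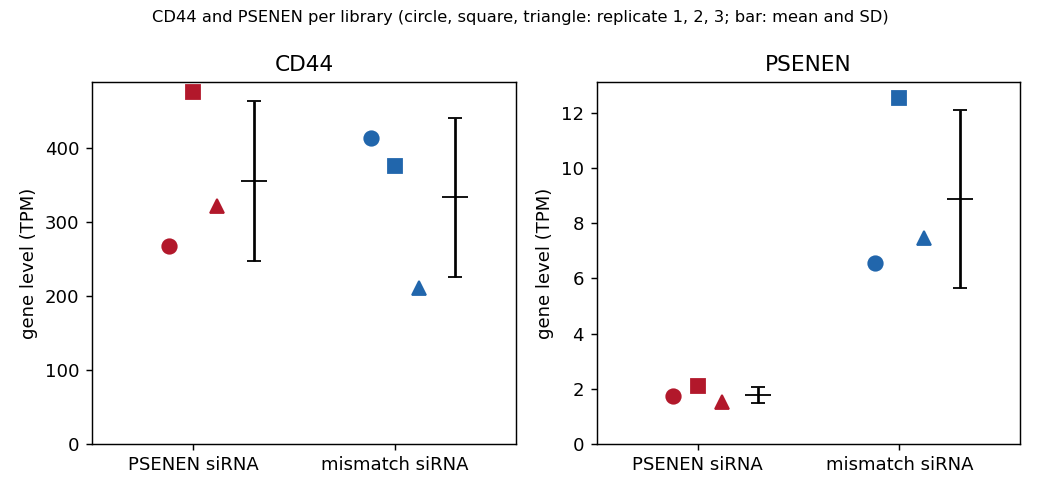
CD44 and PSENEN levels in TPM, with PSENEN siRNA libraries on the left and mismatch siRNA libraries on the right of each panel; symbols are the 3 libraries of a group, and the bar is the mean with its SD. CD44 levels of the groups overlap, at 267 to 475 TPM after PSENEN siRNA and 211 to 413 TPM after mismatch siRNA. PSENEN stays between 1.496 and 2.08 TPM after PSENEN siRNA and between 6.58 and 12.6 TPM after mismatch siRNA.

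CD44 varied more between libraries of the same group than most genes of its level. Its within-group SD was 0.48 on the log2 scale, against a median of 0.17 over the 716 genes with a mean of at least 100 TPM, and 89.0% of those genes varied less. Single transcripts varied more still: the 6 CD44 transcripts with a mean of at least 10 TPM that were tested had within-group SDs from 1.23 to 2.77 (log2), against a median of 0.29 over 6545 transcripts of that level.

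How CD44 was divided among its transcripts differed from library to library within both groups. Assembled transcripts held 43.0%, 32.2% and 54.0% of CD44 TPM in PSENEN siRNA libraries, against 70.4%, 18.9% and 19.4% in mismatch siRNA libraries. The highest and the lowest share were both in mismatch siRNA libraries. Of the 7 assembled CD44 structures, 4 were found in 1 library and 3 in 2 libraries. Over all genes, 82.9% of 51439 assembled structures were likewise found in 1 library, and 0.560% in all 6.

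Of the 36 transcripts, 8 held on average at least 5% of the CD44 total in either group. The structure with the highest level in any library was an assembled one from v4 through v10 to c18, with 173.7 TPM in PSENEN siRNA library 3 and 290.8 TPM in mismatch siRNA library 1. A near copy that stops in c17 had 98.3 TPM in PSENEN siRNA library 1 and 58.2 TPM in mismatch siRNA library 2. Each of the 4 libraries thus had 1 of these structures, and the other 2 had neither.

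Annotated forms with the same block also varied between libraries. ENST00000428726, which holds every variable exon, had 3.06, 97.9 and 0.000596 TPM in PSENEN siRNA libraries, against 0.000236, 14.1 and 3.54 TPM in mismatch siRNA libraries. ENST00000415148, which starts its variable block at v3, had 21.99, 58.2 and 6.48 TPM in PSENEN siRNA libraries, against 6.38, 90.7 and 74.8 TPM in mismatch siRNA libraries. ENST00000428726 stood out in PSENEN siRNA library 2, ENST00000415148 was low in mismatch siRNA library 1 as well as in PSENEN siRNA library 3, and the groups overlapped for both. Their log2 differences were 0.85 with an SE of 1.92 (limma adjusted p = 0.906) for ENST00000428726 and -0.78 with an SE of 1.23 (limma adjusted p = 0.864) for ENST00000415148.

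Shorter entries followed. ENST00000527326, annotated as a retained intron from c15 to c18, had 34.9, 95.9 and 65.5 TPM in PSENEN siRNA libraries, against 9.96, 108 and 34.8 TPM in mismatch siRNA libraries. An assembled piece of c5 and v3 to v5 had 16.5 and 97.9 TPM in PSENEN siRNA libraries 1 and 2 and was listed in no other library. An assembled piece from c2 to c5 joined to v6 to v8 had 40.9 TPM in mismatch siRNA library 3 alone. None of these 3 separated the groups.

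**Figure D2:**
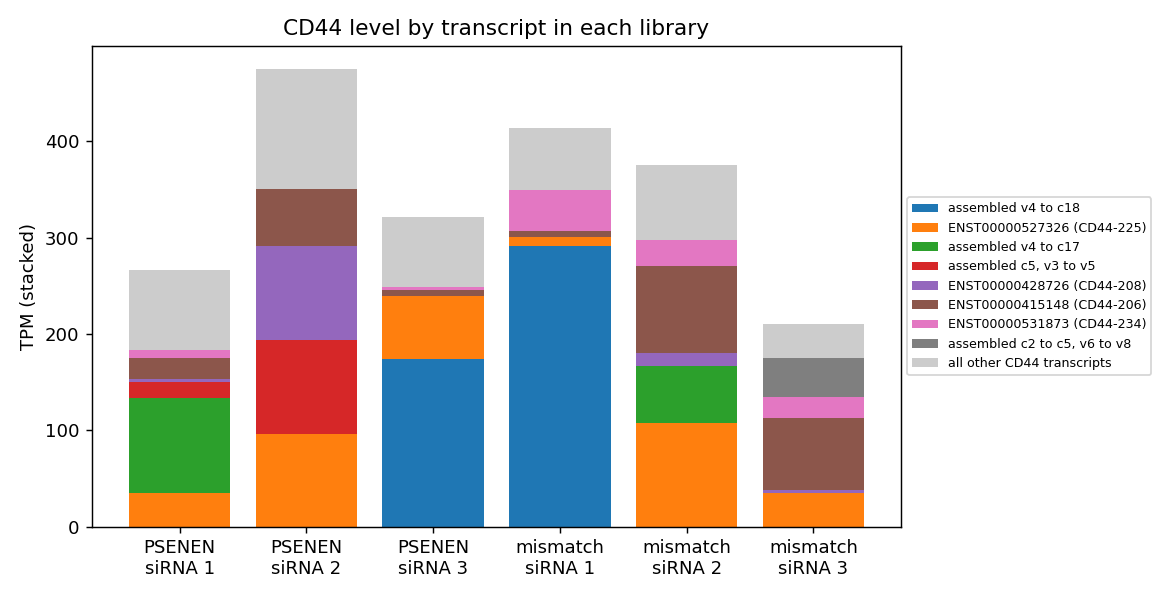
Stacked bars of CD44 TPM in each library, PSENEN siRNA on the left and mismatch siRNA on the right, divided among the 8 transcripts with a mean share of at least 5% in either group and all others in light grey. The leading colour changes from library to library: the assembled structure from v4 to c18 has 290.8 TPM in mismatch siRNA library 1 and 173.7 TPM in PSENEN siRNA library 3 and is absent from the other bars.

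Of the 8, ENST00000531873 stood apart between the groups. This form, which joins c3, c4 and c5 to v9 and v10, had 8.88, 0 and 3.003 TPM in PSENEN siRNA libraries, against 42.1, 26.9 and 21.2 TPM in mismatch siRNA libraries. All mismatch siRNA libraries lay above all PSENEN siRNA libraries, at means of 3.96 ± 4.52 TPM after PSENEN siRNA and 30.1 ± 10.8 TPM after mismatch siRNA (SD, n = 3 each). The log2 difference of -3.13 (SE 0.86) did not pass the test over all transcripts (limma adjusted p = 0.297). In that test 1.09% of 30077 transcripts were called, and 17.1% had groups that did not overlap. Its coverage did not lie on the v9 splice: in mismatch siRNA libraries 88.2%, 91.0% and 91.3% of its bases were in c3, and the coverage of v9 was 0.00397 or less.

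Of the 36 CD44 transcripts, 11 had at least 1 TPM in at least 3 libraries and were tested for level, and none was called. The smallest adjusted p was 0.297, and 1 of the 11, ENST00000531873, had an unadjusted p under 0.05, against 9.39% of all transcripts tested. Their median log2 difference was -0.35, with 7 below 0 and 4 above, and they passed the filter on levels of these same libraries. As shares of the CD44 total, 5 transcripts were tested and none was called, with a smallest adjusted p of 0.785 and none at an unadjusted p under 0.05. Over all genes 3 of 23489 shares were called, which is 0.0128%, and 4.58% had an unadjusted p under 0.05. The 28 transcripts below the 5% share reached at most 42.2 TPM, and 10 of them stayed under 1 TPM in every library.

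PSENEN siRNA and mismatch siRNA values were apart in 4 of the 36 transcripts, of which 2 were among the 11 abundant enough to be tested, against 17.1% of all transcripts tested. Besides ENST00000531873 these were ENST00000526025, ENST00000531110 and ENST00000442151, named here after their values were seen. ENST00000526025, a 2-exon form of c1 and c2, had 0.780 ± 0.217 TPM after PSENEN siRNA and 1.26 ± 0.17 TPM after mismatch siRNA (SD, n = 3 each; limma adjusted p = 0.733). ENST00000531110 was at 0.0313, 0.0468 and 0.0174 TPM in PSENEN siRNA libraries, against 6.40, 15.6 and 0.0672 TPM in mismatch siRNA libraries, so mismatch siRNA library 3 lay close to the PSENEN siRNA level.

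ENST00000442151 is a form without any variable exon that ends in a last exon of its own between c17 and c18. It had 18.1, 0.0272 and 23.9 TPM in PSENEN siRNA libraries and was listed in no mismatch siRNA library. The full-length annotated standard form, ENST00000263398, reached at most 0.0269 TPM in any library. ENST00000442151 was too rarely above 1 TPM to be tested, and its own last exon had a coverage of 9e-05 or less in both libraries where it was high. In PSENEN siRNA library 1 its c15 had a coverage of 23.1, against 80.1 for the whole entry, while in PSENEN siRNA library 3 its c15 was at 1.8e-05 and 77.4% of its bases lay in c2.

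This gap between a transcript's level and the coverage of its exons was common for CD44. StringTie gives a coverage for each exon of each transcript, and 30 of 37 CD44 entries with at least 10 TPM had at least 1 exon under 10% of the entry's own coverage, which is 81.1%. Over all genes the same held for 28.2% of 38783 spliced entries. Among entries with 10 or more exons it held for 12 of 12 CD44 entries and for 34.1% of 16018 entries of all genes. In PSENEN siRNA library 2, v2 had a coverage of 0.00958 in ENST00000428726, whose own coverage was 403. Of the bases of ENST00000527326, 98.3% or more lay in c18 in each of the 5 libraries where it exceeded 10 TPM. In ENST00000415148, v3 had a coverage of 0 in PSENEN siRNA library 2, against 929 in mismatch siRNA library 2, where the whole entry had 439. The variable exons are therefore compared by exon levels rather than by transcript TPM.

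In both groups v2 was nearly absent, v4 and v5 were low, and v8 to v10 were about as high as the constant exons c15 to c17. Exon coverage was summed over CD44 transcripts and put on the TPM scale of each library. Exon v2 had a coverage under 0.1 in 5 of 6 libraries, and the exception was mismatch siRNA library 2, at 24.4 on the TPM scale. Exon v9, the most covered variable exon on average, was at 234, 297 and 246 in PSENEN siRNA libraries, against 258, 243 and 186 in mismatch siRNA libraries. The groups overlapped at v9, with means of 259 ± 33 after PSENEN siRNA and 229 ± 38 after mismatch siRNA (SD, n = 3 each).

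Exon v8 was at 197, 273 and 173 in PSENEN siRNA libraries, against 243, 211 and 139 in mismatch siRNA libraries. Exon v10 was at 149, 191 and 179 in PSENEN siRNA libraries, against 157, 140 and 77.9 in mismatch siRNA libraries. Mismatch siRNA library 3 was the lowest at v8, v9 and v10, and the groups overlapped at each. Averaged over v8 to v10 and divided by the average over c15 to c17, the ratio was 1.07, 1.07 and 0.830 in PSENEN siRNA libraries, against 0.896, 1.00 and 1.94 in mismatch siRNA libraries. Coverage of v8 to v10 was thus close to that of the constant exons downstream in 5 libraries and higher in mismatch siRNA library 3.

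Exons v4 and v5 together were at 15.9, 53.3 and 7.40 in PSENEN siRNA libraries, against 25.4, 16.01 and 8.51 in mismatch siRNA libraries. Their ratio to c15 to c17 was 0.0879, 0.224 and 0.0308 after PSENEN siRNA and 0.104, 0.0809 and 0.123 after mismatch siRNA. PSENEN siRNA libraries held both the highest and the lowest of these ratios. Exon v6 was at 106, 179 and 39.8 in PSENEN siRNA libraries, against 137, 96.8 and 32.3 in mismatch siRNA libraries. Exon v7 followed v6, at 81.7, 161 and 24.8 after PSENEN siRNA and 109, 87.5 and 39.1 after mismatch siRNA. In each group library 3 was the lowest at v6 and v7.

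Exon v3, which carries the site where heparan sulphate chains are attached, had the widest range of the variable exons. It was at 37.2, 178 and 85.8 in PSENEN siRNA libraries, against 23.6, 242 and 21.7 in mismatch siRNA libraries. Library 2 of each group was high and the groups overlapped, with a difference of 4.59 on the TPM scale and an exact two-sided permutation p of 0.9.

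**Figure D3:**
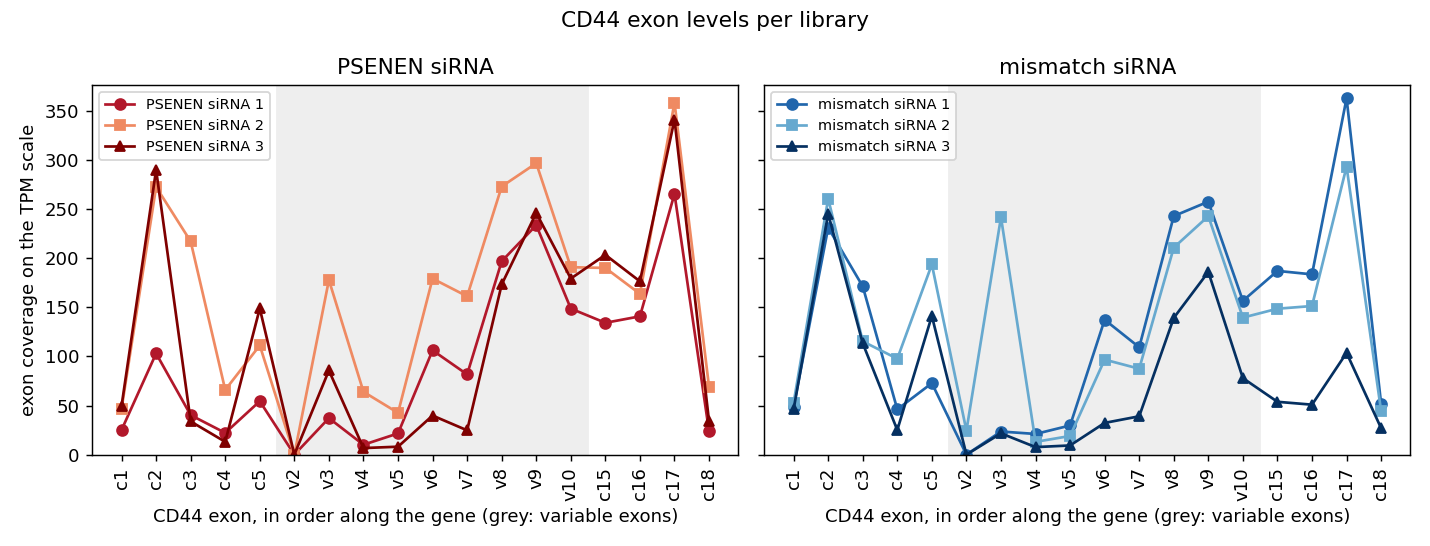
Exon coverage on the TPM scale along the 18 exons of CD44, PSENEN siRNA libraries on the left and mismatch siRNA libraries on the right, with the variable exons shaded. In both panels v2 lies near 0, except 24.4 in mismatch siRNA library 2, v9 stands at 186 to 297, the highest variable exon in each of the 6 libraries, although v3 is level with it in mismatch siRNA library 2, and c17 lies at 104 to 363.

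Exon use was then taken as the coverage of an exon divided by the mean coverage of the 9 constant exons of the same library. Exons c1 and c18 were counted over 501 and 3274 bases, longer than in the CD44 transcripts with the highest levels. Their mean use was 0.302 and 0.305 after PSENEN siRNA and 0.396 and 0.313 after mismatch siRNA, which lowers the denominator. A use above 1 thus does not mean more coverage than every constant exon. Exon v10 was the 1 exon of 18 whose groups did not overlap. Over all genes, use was instead divided by the mean of all exons of a gene, and groups were apart for 10.4% of 99512 exons. On that other measure the groups of v10 overlapped. Relative to the constant exons, use of v10 was 1.65, 1.15 and 1.25 in PSENEN siRNA libraries, against 1.04, 0.925 and 0.869 in mismatch siRNA libraries. The means were 1.35 ± 0.27 after PSENEN siRNA and 0.945 ± 0.087 after mismatch siRNA (SD, n = 3 each), and the exact two-sided permutation p was 0.1, the smallest that 3 against 3 allow, and 0.818 after adjustment over the 18 exons. In a limma fit over all exons, which used the mean of all exons of a gene, v10 had a log2 difference of 0.37 (SE 0.14, adjusted p = 0.940). No exon of any gene was called in that fit, which is 0%, while 5.11% of exons had an unadjusted p under 0.05.

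The other variable exons had exact adjusted p-values from 0.818 to 1 for their use, and their groups overlapped. Use of v9 was 2.03 ± 0.49 after PSENEN siRNA and 1.80 ± 0.25 after mismatch siRNA, and use of v8 was 1.68 ± 0.49 after PSENEN siRNA and 1.52 ± 0.11 after mismatch siRNA (SD, n = 3 each). The denominator moved as well: c1 to c5 over c15 to c17 was 0.272, 0.601 and 0.445 in PSENEN siRNA libraries, against 0.466, 0.728 and 1.64 in mismatch siRNA libraries. Mismatch siRNA library 3 had more coverage at the start of CD44 than near its end, and the other 5 libraries had less. Leaving out PSENEN siRNA library 2 gave 7 exons with separate groups, PSENEN siRNA library 3 gave 6, mismatch siRNA library 1 gave 5, and mismatch siRNA libraries 2 and 3 gave 2 each. Smaller groups are separate more easily, the exons share a denominator, and no share over all genes was computed for these counts. They therefore do not show that more exons differed. The count was 0 with annotated transcripts alone, and the difference at v10 was -0.00476 when only transcripts with both c5 and c15 were used.

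The splice that distinguishes standard CD44, shown above as c5 to c15, had a low level or none. Transcripts that hold it had 18.1, 0.0956 and 23.9 TPM in PSENEN siRNA libraries, against 0.0269, 0.0331 and 0.000557 TPM in mismatch siRNA libraries. These levels did not overlap, but PSENEN siRNA library 2 was far below the other PSENEN siRNA libraries. As a share of all splices from c5 this was 15.3%, 0.0268% and 35.2% after PSENEN siRNA, against 0.0275%, 0.0189% and 0.000361% after mismatch siRNA, so the shares overlapped. The difference of the shares had an exact two-sided permutation p of 0.2, and 0.54 adjusted over the 9 acceptors of c5. Where only transcripts with coverage of at least 10% of their own on both c5 and c15 were counted, a choice made after seeing the data, 18.1 TPM remained in PSENEN siRNA library 1 and 0 TPM in the other 5 libraries.

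The splice of v10 to c15, the second sequence above, was covered in every library. With coverage asked of both exons, its transcripts had 123, 156 and 174 TPM in PSENEN siRNA libraries, against 291, 163 and 78.4 TPM in mismatch siRNA libraries. Mismatch siRNA libraries held both the highest and the lowest value. The splice of v8 to v9 had 123, 177 and 174 TPM after PSENEN siRNA and 291, 163 and 78.4 TPM after mismatch siRNA under the same condition. The splice of c5 to v3 had 16.5, 97.9 and 6.48 TPM in PSENEN siRNA libraries, against 6.38, 90.7 and 74.8 TPM in mismatch siRNA libraries, and was the most covered splice from c5 in PSENEN siRNA library 2 and mismatch siRNA libraries 2 and 3.

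**Figure D4:**
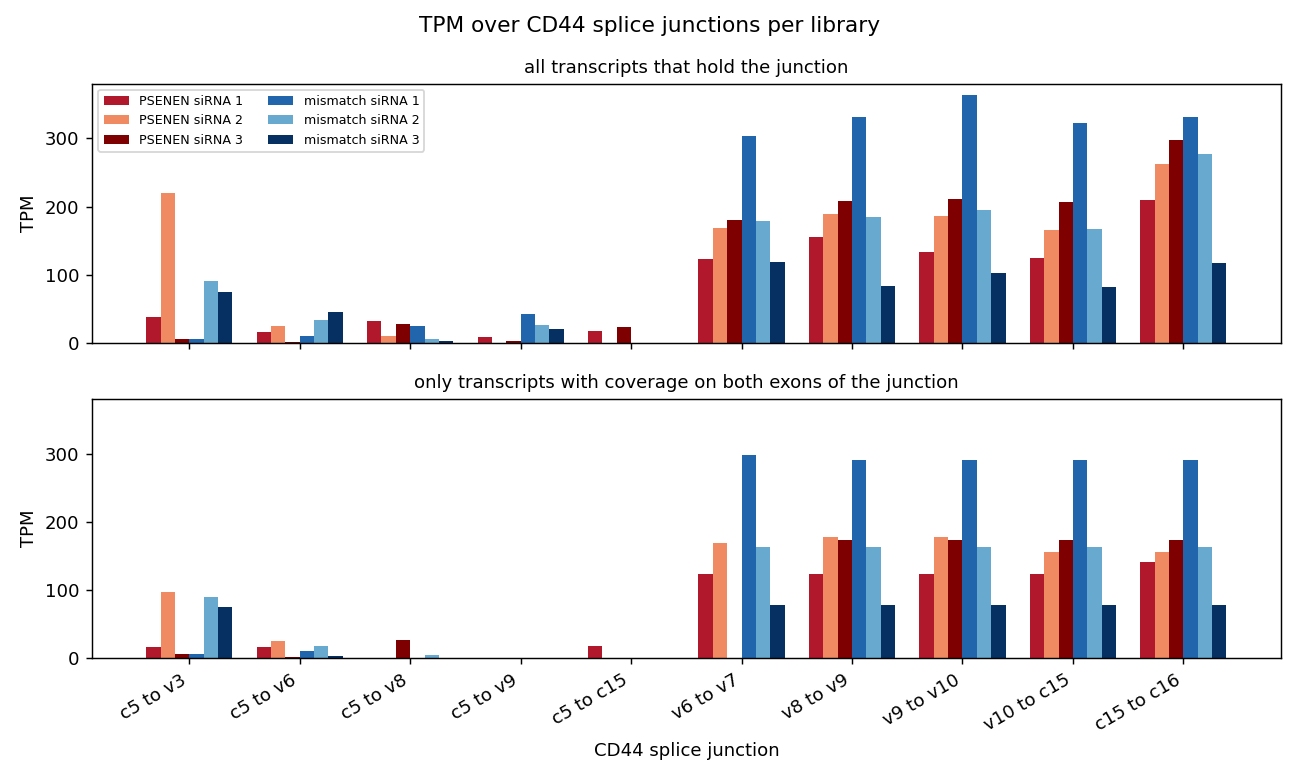
TPM of the CD44 transcripts that hold each splice junction, per library, with PSENEN siRNA bars left of mismatch siRNA bars; the upper panel counts all transcripts and the lower panel those with at least 10% of their own coverage on both exons. In the lower panel c5 to c15 has 18.1 TPM in PSENEN siRNA library 1 and 0 in the others, c5 to v9 is 0 throughout, and v10 to c15 stands between 78.4 and 291 TPM.

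From c5, transcripts that splice to v9 had 7.51%, 0% and 4.42% of the splice total after PSENEN siRNA, against 43.1%, 15.3% and 13.7% after mismatch siRNA. This was the 1 acceptor of c5 of 9 whose groups did not overlap, with an exact two-sided permutation p of 0.1 and 0.54 after adjustment. The share of splices with separate groups over all genes was not computed, so this count has no background to be read against. The c5 to v9 splice is that of ENST00000531873, and with coverage asked of both exons it was at 0 TPM in all 6 libraries. Splicing of c5 to v8 took 26.9%, 2.79% and 40.7% after PSENEN siRNA, against 25.1%, 3.23% and 2.34% after mismatch siRNA, and the groups overlapped. ENST00000433892, named here as the annotated form with v8 to v10 alone, had 1.42, 9.02 and 27.2 TPM in PSENEN siRNA libraries, against 24.5, 4.56 and 3.46 TPM in mismatch siRNA libraries (log2 difference 0.039, SE 1.10, limma adjusted p = 0.994). One library of each group was high, and the groups overlapped. In both of those libraries v9 and c15 of this entry had a coverage of 0, and its v10 had 0.506 in PSENEN siRNA library 3 and 0.377 in mismatch siRNA library 1, so its TPM does not show that v8 to v10 were joined.

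As a share of transcripts that span the whole variable block, those with at least 1 variable exon held 74.5%, 99.9% and 58.8% in PSENEN siRNA libraries, against 99.9%, 100.0% and 100.0% in mismatch siRNA libraries. PSENEN siRNA libraries 1 and 3 were low, and PSENEN siRNA library 2 was level with the mismatch siRNA libraries. The means were 77.7% ± 20.8 after PSENEN siRNA and 99.9% ± 0.04 after mismatch siRNA (SD, n = 3 each), a difference of -22.2 percentage points with an exact two-sided permutation p of 0.2. Most of the part without a variable exon was ENST00000442151, whose coverage is given above. Spanning transcripts held 28.7%, 35.0% and 18.02% of CD44 TPM after PSENEN siRNA and 7.50%, 29.5% and 39.0% after mismatch siRNA, so most of the CD44 total was in shorter pieces that do not show which ends belong together.

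The start of v5 has a pair of acceptors 3 bases apart, and annotated transcripts use both. They give the splices below, in which capitals mark the bases that only the upstream acceptor adds.

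v4 to v5 upstream acceptor: ccacaaggatgactgCAGatgtagacagaa
v4 to v5 downstream acceptor: ccacaaggatgactgatgtagacagaaatg

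The upstream acceptor, at 35201668, took 82.1%, 45.1% and 96.4% of the v4 to v5 splice TPM in PSENEN siRNA libraries, against 94.8%, 43.0% and 4.71% in mismatch siRNA libraries. The highest share was in PSENEN siRNA library 3 and the lowest in mismatch siRNA library 3, and the exact two-sided permutation p was 0.4. Coverage of v4 in assembled structures with this acceptor was low in some libraries: 7.54 for an entry with a coverage of 598 in PSENEN siRNA library 3, and 67.8 for an entry with 1570 in mismatch siRNA library 1. In PSENEN siRNA library 2 it was higher, at 73.6 for an entry with 403 and 28.0 for an entry with 174. The files do not give reads per acceptor, so which acceptor was used was not measured directly.

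Where CD44 transcripts ended varied in the same way. Transcripts that end in the first part of c18 had 93.3, 262 and 273 TPM in PSENEN siRNA libraries, against 332, 218 and 117 TPM in mismatch siRNA libraries. Transcripts that end within c17 had 98.7 TPM in PSENEN siRNA library 1 and 58.6 TPM in mismatch siRNA library 2, and at most 0.450 TPM in the other libraries. No transcript that reaches the last annotated base of c18 exceeded 0.0269 TPM.

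An unspliced transcript on the minus strand covered most of the intron between v9 and v10 in all 6 libraries, and in mismatch siRNA library 3 it reached 35211247, inside v10. It had 2.92, 3.59 and 4.06 TPM in PSENEN siRNA libraries, against 3.48, 3.81 and 5.05 TPM in mismatch siRNA libraries. The groups overlapped, and every value was far below the CD44 total. Another minus-strand transcript, between 35214803 and 35218909, had 0.702 TPM in PSENEN siRNA library 1 and 0.627 TPM in mismatch siRNA library 3. The assemblies give these unspliced transcripts a strand, but the labels do not say whether the libraries kept strand. Whether their reads were kept apart from those of CD44 was not tested. Of 10730 distinct words of 31 bases in CD44 transcripts, 3 occur in transcripts of another gene.

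The genes that splice variable exons of CD44 in or out are RNA-binding proteins. ESRP1 and ESRP2, named here for that role, favour the epithelial forms. ESRP1 had 58.2 ± 9.7 TPM after PSENEN siRNA and 62.1 ± 4.4 TPM after mismatch siRNA (limma adjusted p = 0.780), and ESRP2 had 20.8 ± 12.5 TPM after PSENEN siRNA and 32.8 ± 7.4 TPM after mismatch siRNA (limma adjusted p = 0.482; SD, n = 3 each). Of 43 splicing regulators listed, 42 were tested and none was called; 17 had a difference above 0 and 25 below, with a median of -0.06 against -0.05 over all genes. In 9 of the 42 the libraries of the groups lay apart, against 22.4% of all genes tested.

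The most abundant of the regulators were hnRNP proteins. HNRNPA2B1 had 389 ± 33 TPM after PSENEN siRNA and 419 ± 16 TPM after mismatch siRNA, HNRNPF had 329 ± 19 TPM after PSENEN siRNA and 311 ± 24 TPM after mismatch siRNA, and HNRNPK had 291 ± 14 TPM after PSENEN siRNA and 291 ± 21 TPM after mismatch siRNA (SD, n = 3 each). Their limma adjusted p-values were 0.657, 0.744 and 0.982. None of the 3 differed beyond the spread between libraries.

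No gene that makes, binds or breaks down hyaluronan, the ligand of CD44, passed the test. Of 12 tested, 11 had a difference below 0, with a median log2 difference of -0.41 against -0.05 over all genes, and 6 had separate groups, against 22.4% of all genes tested. HAS3, a hyaluronan synthase, had 22.4, 18.6 and 21.4 TPM in PSENEN siRNA libraries, against 33.4, 23.6 and 31.2 TPM in mismatch siRNA libraries. Its groups did not overlap (log2 difference -0.47, SE 0.16, limma adjusted p = 0.258). HAS2, another synthase, named here after its values were seen, was the 1 gene of the 12 with a difference above 0. It had 2.79, 2.38 and 2.04 TPM in PSENEN siRNA libraries, against 0.879, 0.568 and 1.57 TPM in mismatch siRNA libraries. The groups of HAS2 did not overlap either (log2 difference 0.79, SE 0.24, limma adjusted p = 0.219). UGP2, which makes a sugar nucleotide used for hyaluronan, had 35.3 ± 5.1 TPM after PSENEN siRNA and 40.0 ± 4.5 TPM after mismatch siRNA, and HMMR, another hyaluronan receptor, had 34.5 ± 1.1 TPM after PSENEN siRNA and 37.5 ± 2.1 TPM after mismatch siRNA (SD, n = 3 each; limma adjusted p = 0.617 and 0.641).

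Among proteins that act with CD44 at the membrane or link it to actin, 1 of 25 tested fell, against 0.359% of all genes tested. SLC16A3, a lactate transporter, had 6.60, 8.63 and 7.74 TPM in PSENEN siRNA libraries, against 19.6, 16.8 and 16.1 TPM in mismatch siRNA libraries. The groups were well apart, with a log2 difference of -1.10 (SE 0.15, limma adjusted p = 0.0428). Groups lay apart for 10 of the 25, against 22.4% of all genes tested, and the median was -0.05, as it was over all genes.

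Among the proteases that cut CD44, their inhibitors and the gamma-secretase subunits, 2 of 11 tested fell, against 0.359% of all genes tested, and 1 of them was PSENEN, the siRNA target itself. The other was TIMP2, an inhibitor of metalloproteases, with 2.64, 2.49 and 2.78 TPM in PSENEN siRNA libraries, against 9.85, 9.21 and 8.73 TPM in mismatch siRNA libraries. Its groups lay far apart, with a log2 difference of -1.50 (SE 0.14, limma adjusted p = 0.0166). Over all lists 3 genes were called, against 1 without mismatch siRNA library 1 and 0 without any other library.

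Keratinocyte markers were below 0 for 9 of 10, with a median of -0.34 against -0.05 over all genes. Groups were separate for 6 of 10, against 22.4% of all genes tested, and none was called. KRT14, a keratin of basal cells, had 1559, 1419 and 1442 TPM in PSENEN siRNA libraries, against 2610, 3913 and 4166 TPM in mismatch siRNA libraries. Its groups did not overlap (log2 difference -1.25, SE 0.19, limma adjusted p = 0.0542). Its partner KRT5 had 1177 ± 210 TPM after PSENEN siRNA and 2099 ± 618 TPM after mismatch siRNA, and SFN, a checkpoint protein of squamous cells, had 482 ± 21 TPM after PSENEN siRNA and 615 ± 39 TPM after mismatch siRNA (SD, n = 3 each; limma adjusted p = 0.225 and 0.166).

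**Figure D5:**
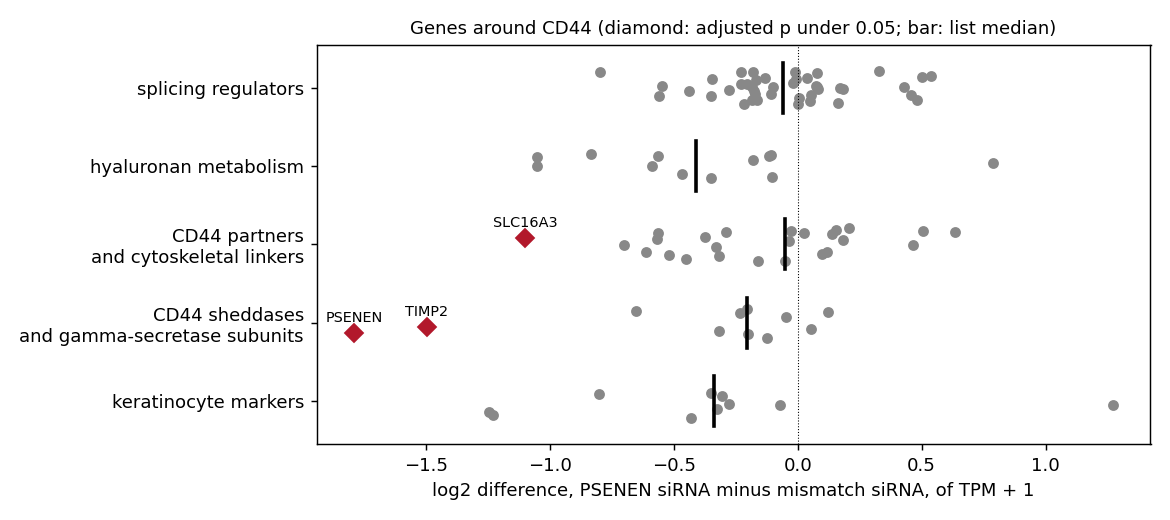
Difference of log2(TPM + 1) between PSENEN siRNA and mismatch siRNA libraries (above 0, higher after PSENEN siRNA) for the tested genes of 5 lists around CD44; red diamonds passed the test and the black bar is the list median. PSENEN, TIMP2 and SLC16A3 are the 3 diamonds, all below 0, and the bar of hyaluronan metabolism lies at -0.41.

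Some genes followed CD44 closely across the 6 libraries, whichever siRNA was used. Of 7023 protein-coding genes with a mean of at least 10 TPM, PRKD2, a protein kinase, had the highest Pearson correlation of log2 levels with CD44, at 0.995. It had 28.3, 48.2 and 32.6 TPM in PSENEN siRNA libraries, against 43.1, 40.5 and 23.5 TPM in mismatch siRNA libraries. PRKD2 and CD44 were both highest in PSENEN siRNA library 2 and lowest in mismatch siRNA library 3. KLHL13 (0.975), MRPL50 (0.973), CDK5RAP1 (0.968) and EDRF1 (0.965) came next. These correlations are descriptions over 6 libraries that differ in depth, picked as the highest of many. The part that depth and preparation play in them was not tested.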

How the data were processed

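RNA sequencing of 6 HaCaT libraries, 3 per group as the labels' treatment field gives them, was analysed from 1 assembly per library. Per the file headers and source fields the files came from StringTie. The values the authors deposited are TPM, FPKM and coverage per base for each transcript, and coverage per base for each exon. The submitters' processing notes name Bowtie 0.12.2, mm8 and mm9; the builds are of mouse and the files are human. For these files the sources used here do not give the aligner, the version of StringTie, strand or read length. Of 92476 reference transcripts named, 92263 were in GENCODE 29 (GRCh38), 98.4% of them at the same start and end.

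A gene's level was its summed TPM, with assembled transcripts joined by a shared intron and matched between libraries by identical introns. Levels were tested with limma 3.58.1 (R 4.3.3, trend) on log2(TPM + 1), for features that reached 1 TPM in 3 or more libraries, with Benjamini-Hochberg adjustment over all features and a threshold of 0.05. Log2 differences are on that scale and understate the change of low genes. Shares were tested for genes with at least 5 TPM in every library, and exon use with exact permutation tests. A junction's level is the summed TPM of the transcripts that hold it, since the files give no junction reads. Exon levels are coverage multiplied by the library's ratio of TPM to coverage. Tests were checked on simulated data. There a log2 difference of 1 was recovered for 55% of changed genes and 7% of changed transcripts. A log2 difference of 2 was recovered for 91% of changed genes and 37% of changed transcripts. The changed transcripts were drawn from all genes. CD44 transcripts with a mean of at least 10 TPM had within-group SDs from 1.23 to 2.77 (log2), against a median of 0.29 over all transcripts of that level. The recovered percentages are therefore not those of CD44 transcripts, and a CD44 transcript that was not called may still differ. Read counts were not used, so no counting interval is given.

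Named were CD44, PSENEN, CD44 transcripts with a mean share of at least 5% in either group, the variable exons, list members that were called or otherwise the 3 most abundant of a list, and the 5 genes most like CD44. CD44 and the lists were chosen with earlier results of these data known. Alternatives were other pseudocounts, filters, scalings and units, annotated transcripts alone, a replicate block and leaving out each library. Assembled bases, limma over all exons, and junctions with both exons covered were added after seeing the data. A group given transfection reagent alone, described in the labels, was not analysed here.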

Additional observations from a re-analysis of the deposited data

How the results depend on the processing

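Values below are PSENEN siRNA minus mismatch siRNA. The CD44 level stayed uncalled under all 16 alternatives, between -0.19 and 0.29 (log2) with 1 library left out. No CD44 transcript level or share was called under any alternative, and the share with a variable exon stayed negative (-33.3 to -12.7 percentage points with 1 library left out). With 85 genes called in all, the replicate block gave 6, assembled bases 139, and leaving out 1 library 9 to 13; list members called, 3 in all, fell to 0 with the block and 0 to 1 with 1 library left out. With 328 transcripts called, pseudocount 5 gave 207, no filter 69, FPKM 190, the block 0 and leaving out 1 library 49 to 64. With 3 shares called, the logit scale gave 0, genes at 1 TPM or more 6, annotated transcripts alone 22, the block 0 and leaving out 1 library 0 to 19. CD44 exons with separate groups numbered 0 with annotated transcripts alone and with transcripts that hold both flanking exons. They numbered 1 to 7 with 1 library left out, where the smaller groups are separate more easily and no share over all genes was computed. Limma over all exons, which counts calls instead, called 0. The PSENEN difference lost its call with pseudocount 5 (limma adjusted p = 0.0591), no filter (0.0877), FPKM (0.0568), median-of-ratios scaling (0.0513), quantile normalization (0.0504) and the block (0.220). Same-numbered libraries did not deviate together (r = -0.0527, 0.00279 and -0.0121), so no sign of pairing by number was seen. This check cannot show that the samples were unpaired. The block left the variable-exon share at -22.2 points (exact permutation p = 0.25, the smallest that swaps within 3 numbered pairs allow). The cause of these changes was not tested.

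Some uncalled differences turned. The level of ENST00000433892 was -0.035 with pseudocount 0.1 and -0.023 with median-of-ratios scaling. Exon use with annotated transcripts alone was 0.0262 for c2, -0.326 for v3, -0.109 for v9 and 0.168 for c18. With both flanking exons held it was 0.562 for c3, 0.107 for c4, -0.547 for v3, -0.0437 for v8, -0.515 for v9, -0.00476 for v10 and 0.0835 for c18. With 1 library left out, levels ran from -1.02 to 2.29 for ENST00000428726, -0.80 to 0.97 for ENST00000433892, -0.16 to 1.41 for ENST00000525241 (c5 and v6), -0.025 to 1.63 for ENST00000527326 and -1.70 to 0.021 for ENST00000532339 (v7 and v8). Shares as fractions ran from -0.0518 to 0.133 for the assembled v4 to c17 structure, -0.235 to 0.180 for that to c18 and -0.0479 to 0.0840 for ENST00000527326. Exon use ran from -0.0808 to 3.87e-06 for v2, -0.228 to 0.495 for v3, -0.0246 to 0.145 for v4, -0.0401 to 0.359 for v7, -0.0951 to 0.395 for v8, -0.0472 to 0.393 for v9 and -0.0631 to 0.0264 for c18.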
